A study of Mus musculus with 6 samples.

Results

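Imprinted genes are expressed mainly from the chromosome copy of 1 parent, and 10 of them were followed in sorted mouse stem and progenitor cells after loss of YY1. The set is Meg3, Rian, Gm37899, H19, Igf2r, Grb10, Gnas, Ndn, Peg3 and Plagl1, taken by gene name from a table of 15553 genes, and all 10 had a row there. The genes were chosen by their RPKM values and fold changes in these libraries, so their differences between genotypes are given as a description and carry no p-value. The libraries labelled Yy1 knockout came from C57BL/6 mice with the genotype Yy1f/f;Mx1-Cre, in which both Yy1 copies carry loxP sites. The wild-type libraries came from C57BL/6 mice with Mx1-Cre alone. All mice were 6 to 8 weeks old, and both genotypes carry the Cre recombinase, which the interferon-responsive Mx1 promoter drives in more cell types than blood stem cells. There were 3 libraries per genotype, and nothing in the labels ties a library to a separate mouse, so the spread between libraries may be partly technical. The cells were lineage-negative, Sca1-positive and c-Kit-positive bone marrow cells. One label names a CD150-positive gate and another both CD150 gates, so the gate behind a library is not settled.

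In an imprinted domain, a control region that is methylated on the copy from 1 parent sets which copy is read, and DNA methylation has to be copied at each cell division to keep the mark. Many imprinted genes act on growth. Those read from the maternal copy, such as H19, Igf2r and Grb10, tend to restrain it, and several are known to be expressed in resting blood stem cells. YY1 is a zinc-finger transcription factor, and mouse studies have described clustered YY1 sites in the control regions of the Peg3 and Gnas domains. Meg3, Rian and Gm37899 lie in the Dlk1-Dio3 domain of chromosome 12, which is known for its maternally read noncoding RNAs and the many small RNAs made from them.

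Levels are RPKM, read counts scaled to gene length and to library size, so they can be compared between genes. Reads recovered from the values numbered 15102983 to 21757039 per library in the listed genes. At this depth 1 read is a small fraction of an RPKM, and the reads behind a value are given where they are few. Yy1 itself stood at 36.2, 16.6 and 28.5 RPKM in knockout and at 31.6, 42.3 and 52.1 RPKM in wild type. The library labelled Yy1 knockout replicate 1 thus lay within the wild-type range, and the values span the whole gene, also any part that was not deleted. Wild type replicate 3 stood apart from the other 5 libraries on the first principal component, which held 34.6% of the variance. The 13 stem cell markers, among them Kit, Ly6a and Slamf1, were all in the table, and 12 or 13 of them reached 1 RPKM in each library.

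The promoters of the chromosome 12 RNAs with a window in the RefSeq table of GRCm38.p6 are shown because these genes had the lowest knockout levels relative to wild type. Each window holds 300 bases, most of them before the gene's start, and capitals mark the core of the YY1 motif, GCCAT, or its reverse ATGGC on the other strand. The Meg3 window is chr12:109540746-109541045 and the Rian window chr12:109603695-109603994, both on the plus strand.
Meg3: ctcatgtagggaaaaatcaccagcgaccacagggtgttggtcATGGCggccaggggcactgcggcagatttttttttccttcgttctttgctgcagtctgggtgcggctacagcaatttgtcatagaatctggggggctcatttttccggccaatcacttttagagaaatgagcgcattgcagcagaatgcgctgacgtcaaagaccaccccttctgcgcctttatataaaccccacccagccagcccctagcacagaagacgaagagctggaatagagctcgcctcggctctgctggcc
Rian: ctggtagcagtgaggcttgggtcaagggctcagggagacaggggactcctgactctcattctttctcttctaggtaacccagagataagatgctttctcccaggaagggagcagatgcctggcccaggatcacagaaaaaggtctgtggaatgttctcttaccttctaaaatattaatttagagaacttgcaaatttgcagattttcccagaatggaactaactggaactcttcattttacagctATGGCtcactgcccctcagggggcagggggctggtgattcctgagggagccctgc
Each of these windows held 1 match on the reverse strand, at position -208 for Meg3 and -5 for Rian. Positions count from the RefSeq start, which lies a few bases from the GENCODE start given for Meg3 and Rian below. RefSeq holds a second Meg3 window, for a later start (chr12:109545148-109545447), with 0 matches and 1 CG pair, which is not printed. GCCAT or its reverse occurs in 40.5% of the 32851 promoter windows, so a match is common. The longer form GCCATNTT occurs in 6.05% of windows on either strand and, overlapping the core where present, had no match in these windows. The printed Meg3 window held 13 CG pairs and the Rian window 0. Grb10, Ndn, Gnas and Plagl1, whose levels overlapped between genotypes as given below, also had a window with 1 match to the core. The windows of Igf2r and Peg3 held 0, as did another window of Grb10 and of Gnas. A match describes the letters and is not a bound site.

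Meg3, a long noncoding RNA that marks the maternal copy of this domain, was close to absent from the knockout libraries. Meg3 (ENSMUSG00000021268, GENCODE M21 on GRCm38, chromosome 12: 109541001 to 109571726, plus strand) stood at 0, 0.0664 and 0.0396 RPKM in knockout and at 2.13, 2.51 and 0.991 RPKM in wild type. These levels rest on 0, 21 and 14 reads in knockout and on 498, 733 and 265 reads in wild type. Every knockout library lay below every wild-type library, and wild type replicate 3 was the lowest of its group. The means were 0.0353 ± 0.0334 RPKM in knockout and 1.88 ± 0.793 RPKM in wild type (SD, n = 3 each, as for all later means), so knockout stood at 1.88% of wild type. Without wild type replicate 3 that share was 1.52%. In bulk RNA, fewer cells that express a gene and less RNA per cell cannot be told apart, here or in the genes that follow.

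Rian, a maternally read RNA that hosts small nucleolar RNAs, starts 32.2 kb after the end of Meg3. Rian (ENSMUSG00000097451, chromosome 12: 109603940 to 109661716, plus strand) stood at 0.293, 0.0229 and 0.0996 RPKM in knockout and at 0.633, 1.36 and 3.78 RPKM in wild type. Its reads, which are estimates, were about 93, 7 and 35 in knockout and 149, 400 and 1018 in wild type. The groups did not overlap, with knockout replicate 1 the nearest to wild type. The wild-type values varied 5.96-fold, and their order was not that of Meg3, since wild type replicate 3 was highest for Rian and lowest for Meg3. Knockout averaged 0.138 ± 0.139 RPKM and wild type 1.92 ± 1.65 RPKM. The knockout mean was 7.19% of the wild-type mean, and 13.9% without wild type replicate 3.

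Gm37899 is an unclassified transcript, annotated only as one to be tested by experiment, 7.15 kb beyond Rian. Gm37899 (ENSMUSG00000102657, chromosome 12: 109668869 to 109677585, plus strand) had 0 reads in each knockout library and 49, 37 and 95 reads in the wild-type libraries. Its levels were 0 RPKM in every knockout library and 0.435, 0.263 and 0.737 RPKM in wild type. Against a floor of 3 reads per knockout library, which is 0.0190 RPKM on average, knockout was at least 25.2-fold lower than the wild-type mean of 0.479 ± 0.240 RPKM. Of the 15465 genes with a known length, 1 had 0 reads in every knockout library and at least 37 reads in every wild-type library (0.00647%), and this was Gm37899, whose own lowest wild-type library sets the limit. The opposite pattern was found in 8 genes (0.0517%).

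Added up, Meg3, Rian and Gm37899 took 93, 28 and 49 reads in knockout libraries and 696, 1170 and 1378 reads in wild-type libraries. Against the estimated reads in listed genes this is 4.77, 1.45 and 2.27 CPM in knockout and 46.1, 63.4 and 79.5 CPM in wild type. Those estimated totals exceed the implied library size in every library, so the CPM are approximate. The summed level varied less among the wild-type libraries than that of Rian alone. These 3 were the only listed genes that start between Dlk1 and Dio3, which bound the domain. Dlk1, Rtl1 and Dio3, protein-coding genes of the domain, and Mirg, its most distal noncoding host gene, had no row in the table, so they could not be compared. Of the 10 genes, these 3 had no overlap with knockout lower, a pattern held by 6.35% of all listed genes, and 0 had no overlap with knockout higher, held by 7.52%. The rule that chose the genes used this contrast, so nothing is read from that share. A knockout mean at least 10-fold lower without overlap was found in 73 of the 15553 genes (0.469%). A mean at least 10-fold higher without overlap was found in 179 (1.15%). Meg3, Rian and Gm37899 were among the 73, and nothing is read from this either, as the genes were chosen on this contrast. Rian met the 10-fold limit only with wild type replicate 3, since its share was 13.9% without that library.

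**Figure D1:**
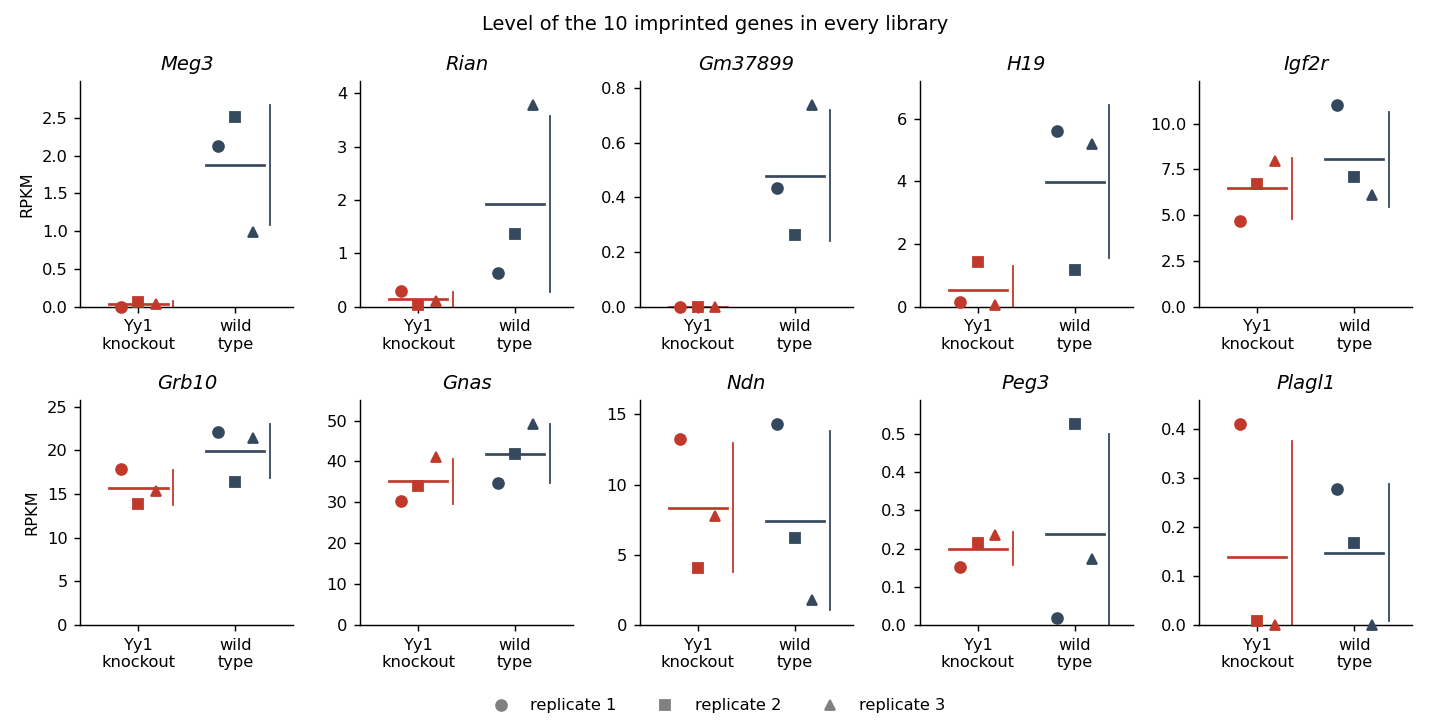
RPKM (linear axis from 0, own scale per panel) of the 10 imprinted genes in the 3 Yy1 knockout and 3 wild-type libraries. Points are libraries, with a marker per replicate number, horizontal lines are means and vertical lines span 1 SD either side, ending at 0. Meg3 and Gm37899 lie at or near 0 in all knockout libraries. Rian lies below all wild-type libraries there, with 0.293 RPKM in knockout replicate 1 beside 0.633 RPKM in wild type replicate 1. The other 7 genes overlap between genotypes.

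Yy1 lies on the same chromosome, ending 721 kb before Meg3 starts, so any sequence difference linked to the engineered allele cannot be told apart from loss of YY1 in this design. The listed genes around the domain give the measured context. Within 1000 kb either side of the span from Meg3 to Gm37899 there were 8 listed genes besides Yy1, and none of the 8 had groups without overlap in either direction. Among all listed genes 6.35% had no overlap with knockout lower and 7.52% with knockout higher. Over all tested genes limma called 0 of 13179, and 7.79% had an unadjusted p under 0.05. Counts of 0 among these neighbours thus cannot show that they were unaffected. Of the 8, 5 passed the filter of at least 1 RPKM in at least 3 libraries. In these 5 limma called 0 at an adjusted p under 0.05, 0 had an unadjusted p under 0.05 and limma-voom called 0. Their log2 fold changes of log2(RPKM + 0.5), knockout minus wild type, ranged from -0.30 for the dynein heavy chain gene Dync1h1 to 0.82 for Wars, the tryptophanyl-tRNA synthetase gene. The nearest of them after the domain, the phosphatase subunit gene Ppp2r5c, stood at 28.8, 28.4 and 41.5 RPKM in knockout and at 31.6, 35.4 and 25.1 RPKM in wild type. On the same scale the log2 fold changes of Meg3, Rian and Gm37899 were -2.09 (SE 0.32), -1.73 (SE 0.59) and -0.94 (SE 0.20), and the added 0.5 understates the change of such low genes. Without the library labelled Yy1 knockout replicate 1 they were -2.04 for Meg3, -1.89 for Rian and -0.94 for Gm37899, and leaving out each library in turn gave -2.40 to -1.89 for Meg3, -2.17 to -1.21 for Rian and -1.11 to -0.76 for Gm37899. In the authors' deposited table the log2 fold changes were -6.72 for Meg3, -4.09 for Rian and -7.11 for Gm37899.

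**Figure D2:**
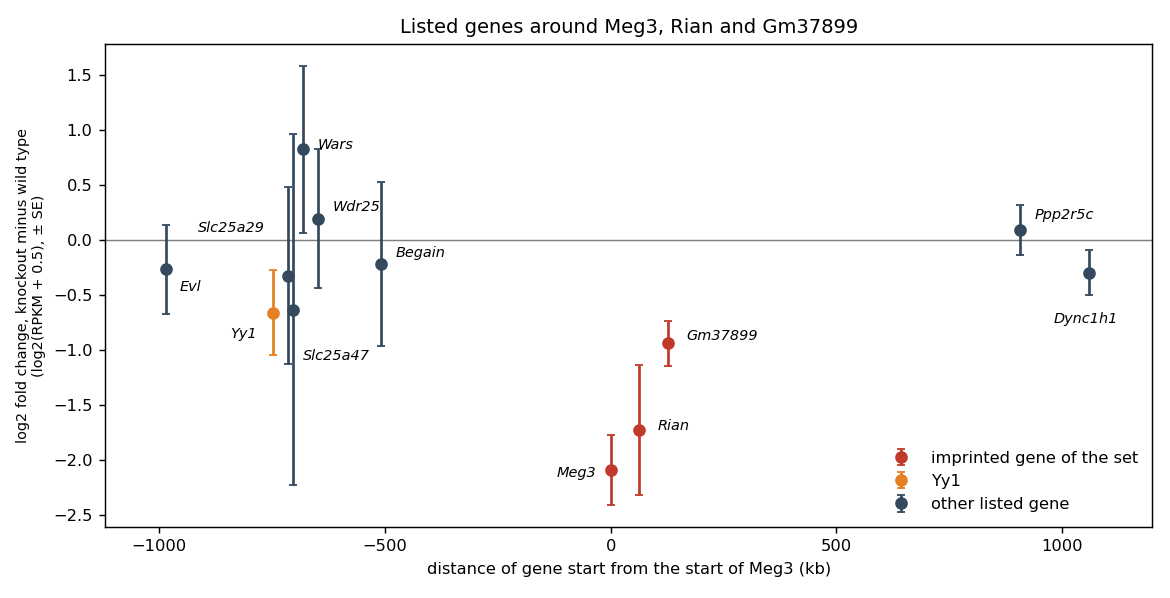
Log2 fold change of log2(RPKM + 0.5), knockout minus wild type, of every listed gene within 1000 kb of the span from Meg3 to Gm37899, against the distance of its start from that of Meg3 in kb. Points are genes and bars are standard errors from the 3 libraries per genotype. Meg3, Rian and Gm37899 lie between -2.09 and -0.94, below the points of all other genes shown.

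H19 is a maternally read noncoding RNA known to restrain insulin-like growth factor signalling in mouse blood stem cells. H19 (ENSMUSG00000000031, chromosome 7: 142575529 to 142578143, minus strand) stood at 0.145, 1.42 and 0.0432 RPKM in knockout and at 5.61, 1.18 and 5.19 RPKM in wild type. The reads were about 6, 61 and 2 in knockout and 178, 47 and 189 in wild type. A low pair and a higher library stood in knockout, a high pair and a lower library in wild type, and knockout replicate 2 exceeded wild type replicate 2, so the groups overlapped. The means were 0.537 ± 0.768 RPKM in knockout and 3.99 ± 2.45 RPKM in wild type. On the scale of log2(RPKM + 0.5) the difference, knockout minus wild type, was -2.15 (SE 0.83). It was -1.92 without the library labelled Yy1 knockout replicate 1, and -2.75 to -1.80 over all libraries left out in turn. Igf2, the growth factor gene that shares the H19 control region and is read from the paternal copy, was at 0.0703, 0.210 and 0.00894 RPKM in knockout and at 0, 0.553 and 2.26 RPKM in wild type, also with overlap.

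Meg3 and H19 each carry a microRNA within an annotated exon. Which spliced forms of the host RNAs hold these sequences was not tested. The mature sequences are from RefSeq (GRCm38.p6), with the seed, bases 2 to 8, in capitals.
mmu-miR-770-5p in Meg3: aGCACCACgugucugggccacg
mmu-miR-770-3p in Meg3: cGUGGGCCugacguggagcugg
mmu-miR-675-5p in H19: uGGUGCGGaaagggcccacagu
mmu-miR-675-3p in H19: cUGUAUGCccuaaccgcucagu
No seed was shared among these 4. Rian spans Mir341, Mir1188 and Mir370, which lie outside its annotated exons. None of the microRNA genes was a row of the table, so the microRNAs themselves were not measured here.

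Igf2r and Grb10, growth restrainers read from the maternal copy, were well covered. Their knockout means were 80.2% of the wild-type mean for Igf2r and 78.7% for Grb10, with overlap between genotypes in both. Igf2r (ENSMUSG00000023830, chromosome 17: 12682406 to 12769664, minus strand), the receptor that clears IGF2 and sorts lysosomal enzymes, stood at 4.68, 6.72 and 7.96 RPKM in knockout and at 11.01, 7.06 and 6.07 RPKM in wild type. The groups overlapped, with 1 high wild-type and 1 low knockout library, both numbered replicate 1. The means were 6.45 ± 1.66 RPKM in knockout and 8.05 ± 2.61 RPKM in wild type, and the log2 fold change was -0.28 (SE 0.32). Without wild type replicate 1 it was -0.05, and without knockout replicate 1 it was -0.09. Airn, the antisense RNA whose transcription silences the paternal Igf2r copy, overlaps Igf2r without sharing exonic bases. Airn stood at 2.90, 1.58 and 3.0 RPKM in knockout and at 2.25, 1.09 and 0.453 RPKM in wild type, a log2 fold change of 0.86 (SE 0.50) that limma did not call (adjusted p = 0.785).

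Grb10 encodes an adaptor that dampens insulin and IGF1 receptor signalling. Grb10 (ENSMUSG00000020176, chromosome 11: 11930508 to 12038683, minus strand) stood at 17.8, 13.9 and 15.4 RPKM in knockout and at 22.0, 16.4 and 21.4 RPKM in wild type, on at least 2206 reads per library. Knockout replicate 1 exceeded wild type replicate 2, so the groups overlapped at that point. Its log2 fold change was -0.33 (SE 0.17), and leaving out each library in turn gave -0.46 to -0.25.

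Gnas, the gene of the stimulatory G protein alpha subunit, was the highest of the 10 genes in both genotypes. It is a complex locus with several promoters, of which some transcripts are imprinted, and its row adds them up. Gnas (ENSMUSG00000027523, chromosome 2: 174284320 to 174346744, plus strand) stood at 30.3, 33.9 and 41.2 RPKM in knockout and at 34.7, 41.8 and 49.2 RPKM in wild type. In each genotype replicate 1 was lowest and replicate 3 highest, the groups overlapped, and the log2 fold change was -0.25 (SE 0.19). It was -0.13 without wild type replicate 3, -0.15 without the library labelled Yy1 knockout replicate 1, and as low as -0.38 without wild type replicate 1. The antisense gene Nespas shares 988 exonic bases with Gnas and was low, at 0.750, 0.327 and 0.0651 RPKM in knockout and 0.0246, 0.553 and 0.0215 RPKM in wild type. Gm20721, also antisense, shares 1469 exonic bases with Gnas. Reads of these pairs cannot be told apart without a known strand setting.

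The remaining genes are read from the paternal copy. Ndn encodes necdin, a growth-restraining protein studied in mouse blood stem cells for its part in rest. Ndn (ENSMUSG00000033585, chromosome 7: 62346569 to 62350262, plus strand) stood at 13.2, 4.08 and 7.78 RPKM in knockout and at 14.3, 6.16 and 1.76 RPKM in wild type. Its libraries varied 3.24-fold within knockout and 8.14-fold within wild type, more than the genotypes differed. The log2 fold change was 0.41 (SE 0.91), -0.31 without wild type replicate 3 and 1.05 without wild type replicate 1. Without knockout replicate 1 it was 0.02, and without knockout replicate 2 it was 0.81.

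Peg3 and Plagl1, zinc-finger transcription factor genes with growth roles, were low, and libraries within a genotype lay too far apart for a comparison of genotypes. Peg3 (ENSMUSG00000002265, chromosome 7: 6703892 to 6730431, minus strand) had about 35, 50 and 61 reads in knockout and 3, 113 and 34 in wild type, or 0.151, 0.215 and 0.235 RPKM in knockout and 0.0174, 0.527 and 0.173 RPKM in wild type. The wild-type libraries spanned more than the whole knockout range. Plagl1 (ENSMUSG00000019817, chromosome 10: 13060504 to 13131694, plus strand) had 56, 1 and 0 reads in knockout and 28, 21 and 0 in wild type, so that in each genotype 1 library was at 0. Their log2 fold changes, -0.02 for Peg3 and -0.05 for Plagl1, were small beside standard errors of 0.29 and 0.34.

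Ordered by mean level, knockout gave Gnas, Grb10, Ndn, Igf2r, H19, Peg3, Plagl1, Rian, Meg3 and Gm37899, and wild type gave Gnas, Grb10, Igf2r, Ndn, H19, Rian, Meg3, Gm37899, Peg3 and Plagl1. In knockout, neighbours in the order lay apart without overlap between Gnas and Grb10, Grb10 and Ndn, and Igf2r and H19. In wild type this held between Gnas and Grb10, Grb10 and Igf2r, and Meg3 and Gm37899. All other neighbours overlapped. Meg3 and Rian thus stood above Peg3 and Plagl1 in wild type by mean and below them in knockout.

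Across the whole table, limma called 0 of the 13179 genes that passed the filter (0%), where 1027 had an unadjusted p under 0.05 (7.79%), limma-voom on recovered reads called 6 of 13114 (0.0458%), and the authors' deposited table called 24 of 15553 (0.154%). None of the 10 genes was among the 24. H19, Igf2r, Grb10, Gnas and Ndn passed the filter, H19 through its wild-type libraries and 1 knockout library, while Meg3, Rian, Gm37899, Peg3 and Plagl1 did not.

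A list of 68 other mouse genes described as imprinted gives the wider picture, and 39 of them were in the table. Of the 30 tested, limma called 0 in either direction, 1 had an unadjusted p under 0.05 and limma-voom called 0. Their median log2 fold change was -0.09 and 18 lay below 0 (60.0%), beside a median of 0.02 and 48.1% below 0 over all tested genes. Of the 39, 4 had no overlap with knockout lower, beside the 6.35% of all listed genes, and 0 with knockout higher. The 4 were Mcts2, Zrsr1, Atp10a and Herc3, the last named after its values were seen.

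The smallest p of that list belonged to Mcts2, a retrogene within the H13 gene, at 11.6 ± 1.49 RPKM in knockout and 19.8 ± 2.59 RPKM in wild type (log2 fold change -0.74, limma adjusted p = 0.556). Zrsr1, a retrogene within Commd1 that encodes a splicing factor, averaged 7.0 ± 2.44 RPKM in knockout and 10.9 ± 0.584 RPKM in wild type (limma adjusted p = 0.702). Both are copies of other genes and may share reads with them. Cd81, a tetraspanin gene of the Kcnq1 domain, stood at 32.6 ± 5.71 RPKM in knockout and 45.8 ± 8.28 RPKM in wild type (limma adjusted p = 0.658). The lipid flippase gene Atp10a averaged 8.32 ± 1.95 RPKM in knockout and 12.1 ± 2.17 RPKM in wild type. The noncoding RNA Peg13 and the cation transporter gene Slc22a3, a neighbour of Igf2r, had log2 fold changes of -0.49 and -0.57, none past the threshold.

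Cd81, Peg13 and Slc22a3 were also among the 6 most abundant tested genes of the list, and the other 3 were Nap1l4, Tspan32 and Copg2. Nap1l4, a histone chaperone gene, stood at 57.4 ± 2.66 RPKM in knockout and 61.7 ± 5.24 RPKM in wild type. Tspan32, a tetraspanin gene of blood cells, stood at 45.6 ± 9.41 RPKM in knockout and 39.5 ± 2.22 RPKM in wild type, and Copg2, a coat protein gene, at 20.8 ± 1.58 RPKM in knockout and 18.5 ± 4.54 RPKM in wild type. Cdkn1c, the maternally read CDK inhibitor p57 that restrains stem cell division, stood at 4.46, 5.80 and 13.1 RPKM in knockout and at 8.82, 9.32 and 3.99 RPKM in wild type. It was named after its values were seen, and its groups overlapped widely.

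**Figure D3:**
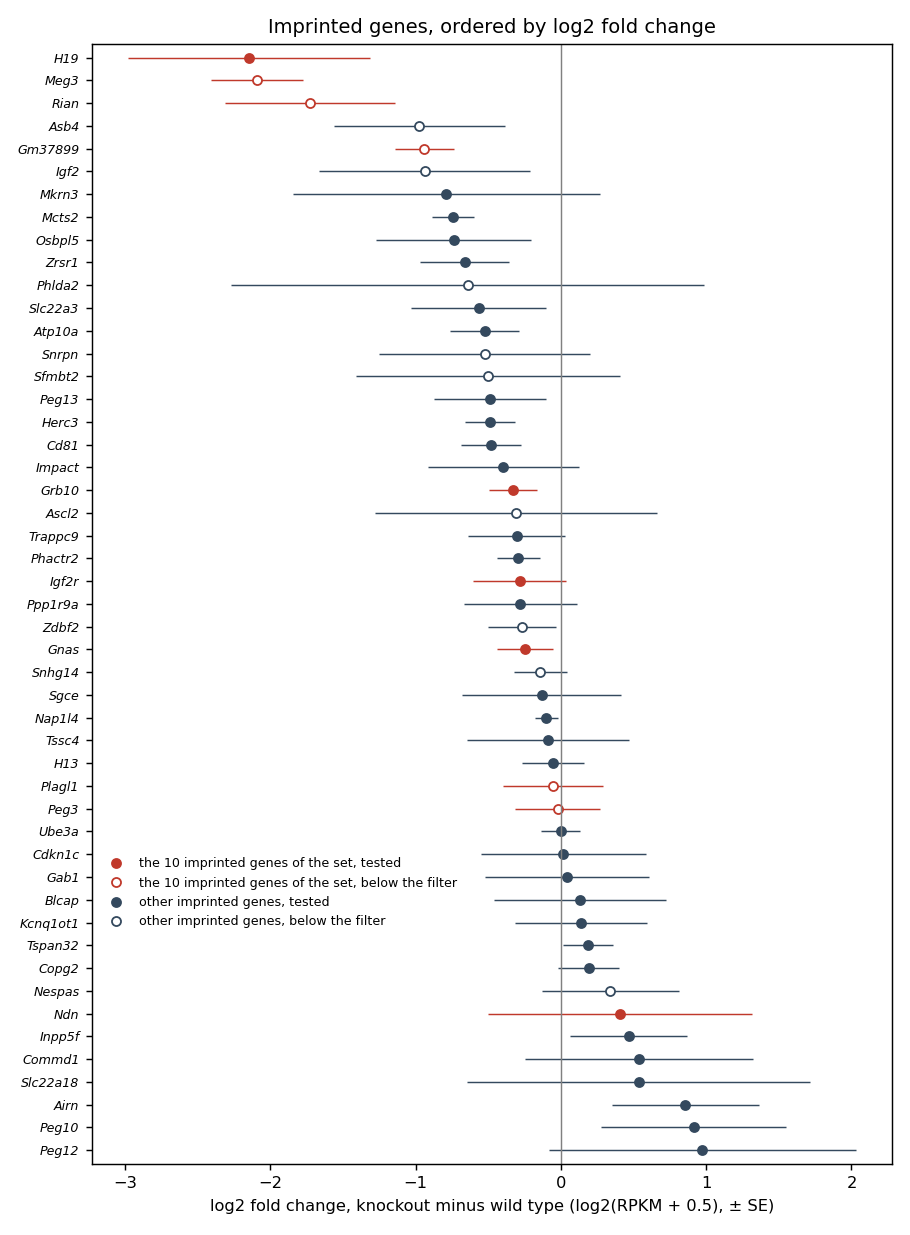
Log2 fold change of log2(RPKM + 0.5), knockout minus wild type, with its standard error, of the 10 imprinted genes and the 39 other imprinted genes in the table, ordered from lowest to highest. Open points did not pass the filter of 1 RPKM in at least 3 libraries. H19, Meg3 and Rian are the lowest, at -2.15, -2.09 and -1.73, and the points of the 39 other imprinted genes all lie within 1 of 0.

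Genes that copy, protect or erase imprints were measured beside them. Of the list of 25, 21 were in the table and tested, limma called 0 of the 21, 1 had an unadjusted p under 0.05 and limma-voom called 0. In limma-voom 5 of the 21 had an unadjusted p under 0.05, beside 1068 of all 13114 genes in that test. The median log2 fold change was 0.07, with 14 members above 0. Leaving out 1 library moved this median to 0.01 without the library labelled Yy1 knockout replicate 1 or without wild type replicate 3, to 0.03 without knockout replicate 2, to 0.19 without wild type replicate 1, to 0.11 without wild type replicate 2 and to 0.21 without knockout replicate 3. Dnmt1, which copies DNA methylation after replication, stood at 76.2, 73.0 and 52.4 RPKM in knockout and at 49.7, 50.7 and 47.2 RPKM in wild type (limma adjusted p = 0.660). Dnmt1 was 1 of 4 genes of the 21 that were higher in knockout without overlap, with Smchd1, Ezh2 and Hells, beside 7.52% of all listed genes. Tet2, which oxidises methylated DNA, was the 1 gene lower without overlap, at 6.59, 5.87 and 5.91 RPKM in knockout and 8.75, 8.97 and 6.81 RPKM in wild type, beside 6.35% of all listed genes. Ezh2 and Tet2 were named after their values were seen. Uhrf1, which brings DNMT1 to new DNA, averaged 28.3 ± 11.9 RPKM in knockout and 16.3 ± 9.5 RPKM in wild type, with overlap. The remodeller gene Hells, with the smallest p of the list, averaged 24.2 ± 4.70 RPKM in knockout and 12.2 ± 6.23 RPKM in wild type (limma adjusted p = 0.626).

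Zfp57, a zinc-finger protein that guards methylated imprints, stood at 1.44, 3.53 and 0.730 RPKM in knockout and at 3.54, 3.30 and 3.22 RPKM in wild type (limma adjusted p = 0.766). Wild-type libraries lay close together for Zfp57, and knockout replicate 2 lay among them. Its partner Trim28 had a log2 fold change of 0.20 (SE 0.25), the insulator gene Ctcf 0.16 (SE 0.25) and the chromatin remodeller Atrx 0.03 (SE 0.10). The de novo methyltransferase gene Dnmt3b and Smchd1, which silences imprinted clusters, had log2 fold changes of 0.50 and 0.35. The Polycomb gene Eed was at 0.07 and the retinoblastoma-binding gene Arid4a at -0.18. None of these was called.

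Markers of dividing cells were higher in the knockout libraries. The RPKM of the 15 markers summed to 488 to 518 in knockout libraries and to 146 to 220 in wild-type libraries, with 14 of 15 higher in knockout without overlap, beside 7.52% of all listed genes. Of the 15, limma called 0 and limma-voom called 4, and 13 had an unadjusted p under 0.05, beside 7.79% of all tested genes. The 13 stem cell markers summed to 458 to 510 RPKM in knockout and 655 to 742 RPKM in wild type, with 4 of 13 lower in knockout without overlap, beside 6.35% of all listed genes. Among the 11 of 20 markers of mature blood cells in the table, the sums were 157 to 272 RPKM in knockout and 77.7 to 173 RPKM in wild type. S100a9, a neutrophil gene, was the largest part of the highest sum in each genotype, with 149 RPKM in knockout replicate 2 and 86.4 RPKM in wild type replicate 2. Of the 11, the haemoglobin gene Hbb-bs and the megakaryocyte genes Pf4, Itga2b and Gp9 were higher in knockout without overlap and 0 were lower. Among all listed genes the shares were 7.52% higher and 6.35% lower. The same 4 had an unadjusted limma p under 0.05, beside 7.79% of all tested genes. Neither limma nor limma-voom called any of the 11. The other haemoglobin gene of the list, Hbb-bt, overlapped between genotypes, with a log2 fold change of -0.05 (SE 0.67). Of the 10 tested, 4 had a log2 fold change below 0, namely Hbb-bt, Mpo, Itgam and Cpa3. Stromal and endothelial markers, of which 9 of 15 were in the table, summed to 40.6 to 42.4 RPKM in knockout and 40.3 to 63.1 RPKM in wild type. The endothelial gene Tie1 was the largest part of each of these sums. Of the 9, 1 was lower in knockout without overlap, beside 6.35% of all listed genes, and 0 were higher. This was the pericyte gene Pdgfrb, at 0.420, 1.61 and 0.916 RPKM in knockout and at 2.56, 3.93 and 3.11 RPKM in wild type. Of the 5 tested, 4 had a log2 fold change below 0 and Vwf was above 0. Only Pdgfrb had an unadjusted limma p under 0.05, and neither limma nor limma-voom called any. The collagen gene Col1a1 stayed under 0.2 RPKM in every library and was listed at 0 in 3. Cxcl12 stood at 0, 0.0350 and 0 RPKM in knockout and at 0.454, 0.471 and 0 RPKM in wild type. The part of these cell types in the levels of Meg3, Rian, Gm37899 and H19 was not tested.

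By Pearson's r of log2(RPKM + 0.5) over the 6 libraries, which share genotype and depth, the 5 tested genes most like Meg3 were Fam49a, Fgf3, Rnf19a, Ndufa2 and Tmem191c, with r of 0.975 to 0.984. Those most like Igf2r were Sugct, Tmem158, Gm38120, Rsl24d1 and Gm12577, with r of 0.979 to 0.992. Those most like Gnas were Cyhr1, Ipcef1, Mien1, Nudt7 and Tsc2, with r of 0.991 to 0.999. Meg3, Rian, Gm37899, Peg3 and Plagl1, being below the filter, were not among the genes searched.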

How the data were processed

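The authors deposited 1 table with a value per gene and library. The submitters' processing notes name Subread, featureCounts, limma and edgeR, with mm10 as the build. Their versions, strand setting and gene filter are not given in the sources used here. Its unit was inferred from the values: the deposited values behaved as RPKM, since times the exonic length of GENCODE M21 (GRCm38) they were whole multiples of 1 step per library, within 0.02 reads in all 6 libraries, for 11108 of 15465 genes (71.8%). Reads of the other genes, among them Rian, H19, Igf2r, Peg3 and Ndn, are estimates. The deposited log2 fold changes and p-values are the authors' own comparison, whose test is not named.

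Genotypes were compared with limma 3.58.1 (R 4.3.3) on log2(RPKM + 0.5), keeping genes that reached 1 RPKM in 3 or more libraries, with a variance trend and Benjamini-Hochberg adjustment over all tested genes at 0.05, two-sided. The fit was tested on simulated data with the same spread for all genes and no outlying library. These libraries differ from that, so the simulation does not show how the fit behaves on them. Standard errors are unmoderated. Other pseudocounts, filters, normalizations, limma-voom, a replicate block and leaving out each library were tried. All 10 genes are named; from the other imprinted and the imprint maintenance lists, the 6 with the smallest p and the 6 with the highest level were named. The genes and lists were chosen with earlier results of these data known. The kit (NuGen Ovation) amplifies RNA, so reads are not independent molecules and floors cover counting error only.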

Additional observations from a re-analysis of the deposited data

How the results depend on the processing

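The direction of Meg3, Rian, Gm37899, H19, Igf2r, Grb10 and Gnas was the same under each setting that gave them a value, while Ndn, Peg3 and Plagl1 changed sign in some. The 5 RPKM filter gave no value for H19, and neither it nor limma-voom with the filter gave one for Meg3, Rian, Gm37899, Peg3 or Plagl1. The pseudocount set the size for low genes. With 0.1 the log2 fold changes were -3.81 for Meg3, -2.92 for Rian, -2.45 for Gm37899 and -3.17 for H19, and with 1 they were -1.43 for Meg3 and -0.55 for Gm37899. In limma-voom on recovered reads H19 stood at -3.73. In the same test with no filter, added after seeing the data, Meg3 stood at -6.66, Rian at -4.03, Gm37899 at -7.06, Peg3 at 0.68 and Plagl1 at -1.22. The number of genes called was 6 in limma-voom, 8 in limma-voom with no filter and 0 to 1 when 1 library was left out, with the single call without wild type replicate 1 and without wild type replicate 2. Other imprinted genes and imprint maintenance genes had 0 calls under every setting, limma-voom included, but the median of the other imprinted genes was -0.27 with no filter, -0.22 in limma-voom with no filter, -0.23 without knockout replicate 2, -0.24 without wild type replicate 3, -0.03 without knockout replicate 1 and -0.01 without wild type replicate 2, beside -0.09 with all libraries, and that of the imprint maintenance genes was 0.14 in limma-voom, beside 0.07. A replicate block, which pairs libraries by number, called 0 genes. Deviations of same-numbered libraries from their group means correlated at only 0.02, 0.06 and 0.05, so the numbers were not taken as pairs, although each library correlated best with its own number.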
